A study of Mus musculus with 6 samples.

Results

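Thyroid hormone reaches liver cells bound to plasma proteins, crosses the membrane through transporters and is activated or cleared inside the cell by deiodinases. The 5 genes described here belong to these steps. Serpina7 encodes thyroxine-binding globulin, Ttr encodes transthyretin and Alb encodes albumin, the plasma carriers of thyroid hormone. Dio1 encodes the type 1 deiodinase and Slc16a10 encodes the monocarboxylate transporter MCT10, which carries thyroid hormone and aromatic amino acids. They are 5 of 18820 genes measured. Serpina7 was chosen by its fall in this comparison, so that its values are described and not tested, and the other 4 genes were included for their function. The 5 were chosen with earlier results of these data known. Primary hepatocytes of 8- to 10-week-old male wildtype C57BL/6J mice were cultured in 60-mm dishes and transduced with adenovirus. The control virus carried green fluorescent protein (Ad-GFP) and the other virus carried nuclear CREBH (Ad-nuclear CREBH). CREBH is a liver transcription factor held in the endoplasmic reticulum membrane until it is cleaved, and the virus supplies the form that acts in the nucleus. Both groups received virus at a multiplicity of infection of 100, and RNA was collected 24 h later from 3 dishes per group, each on its own Affymetrix array. The cells were in culture without the rest of the body, and thyroid hormone itself was not measured.

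Thyroxine is made in the thyroid and circulates almost entirely bound to protein, and the liver makes these carriers. The carriers set the size of the circulating pool, whereas the free hormone enters cells. Dio1 removes iodine from thyroxine to give the active hormone triiodothyronine and also clears inactive forms, Dio2 activates thyroxine in other tissues, and Dio3 inactivates both hormones. Triiodothyronine acts through nuclear receptors, of which the beta form predominates in liver, and Dio1 is among the genes these receptors raise.

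Creb3l3, the gene of CREBH, was at 8.49, 8.02 and 8.21 (log2) in the Ad-GFP dishes and at 9.97, 10.46 and 10.59 in those with Ad-nuclear CREBH, a difference of 2.10 (SE 0.19, adjusted p = 8.98e-05 from limma). The array of replicate 1 stood somewhat apart in both groups, and for several genes below its value differed from those of the remaining dishes. A gene is called risen or fallen where its adjusted p, by Benjamini-Hochberg across the whole table, was under 0.05. This gave 3615 rises and 3427 falls, or 4814 and 2852 once arrays were centred on their medians. Of the 9 hepatocyte markers measured, none rose and 4 fell, 44.4% against 37.4% of all genes. All 9 were above the median level of all genes, where a larger share passed, 2895 rising and 2967 falling of 9410. Fgb, Asgr1, Cps1 and Ahsg fell, with log2 differences of -2.29, -1.51, -1.21 and -0.75. Apob, Apoa2, Trf, Hnf4a and Cebpa did not pass. The summed linear level of the 9 was 25850 to 29344 in Ad-GFP and 20904 to 23787 in Ad-nuclear CREBH dishes. Alb and Ttr, which also mark hepatocytes, were at 11.76 or more on every array. The labels do not say whether dishes came from separate animals, so that p-values measure only the spread between dishes. An exact permutation test of 3 against 3 cannot give a p below 0.1. In such cultures fewer cells of a type and less RNA per cell cannot be told apart.

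Serpina7 mRNA was at 10.66, 11.72 and 11.73 (log2) in the Ad-GFP dishes and at 3.11, 3.65 and 3.66 in the Ad-nuclear CREBH dishes. All 3 Ad-nuclear CREBH dishes were far below the Ad-GFP dishes, and within each group replicate 1 was the lowest. The mean was 11.37 ± 0.61 (SD, n = 3) in Ad-GFP dishes and 3.47 ± 0.31 (SD, n = 3) in Ad-nuclear CREBH dishes, a log2 difference of -7.90 (SE 0.31) or a 238-fold lower value. No other gene of the 18820 had a larger fall, which is the property it was chosen for. The median gene lay between 5.05 and 5.12 on the Ad-nuclear CREBH arrays, so that Serpina7 was a dim signal there and the size of its fall can be understated. With both arrays numbered 1 left out the difference was -8.07, and with any 1 array left out it was between -8.25 and -7.71.

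Neither of the other plasma carriers passed the test, and for both the groups overlapped. Transthyretin carries both thyroxine and, through retinol-binding protein, vitamin A. Ttr was at 11.90, 11.99 and 11.86 in the Ad-GFP dishes and at 12.29, 11.76 and 11.76 in those with Ad-nuclear CREBH. The log2 difference was 0.02 (95% interval -0.31 to 0.35, adjusted p = 0.929). Replicate 1 of the Ad-nuclear CREBH group was the highest of the 6 arrays, and with both arrays numbered 1 left out the difference was -0.17 (adjusted p = 0.0269). Albumin binds thyroid hormone weakly but is present in large excess. Alb was at 13.27, 13.25 and 13.33 in the Ad-GFP dishes and at 13.27, 13.23 and 13.32 in those with Ad-nuclear CREBH, a log2 difference of -0.01 (95% interval -0.14 to 0.11, adjusted p = 0.865). These values are close to the highest of any gene on the arrays, 13.46 to 13.56, where a change in either direction may not be read in full. After cyclic loess normalization Alb differed by -0.31 (adjusted p = 0.00642). Rbp4, the retinol-binding protein that circulates with transthyretin, fell from 11.99 to 10.74, a log2 difference of -1.25 (SE 0.16, adjusted p = 4.24e-04), and its groups did not overlap. Of 4 measured genes of retinol transport and storage, Ttr among them, Rbp4 was the 1 that passed, 25% against 37.4% of all genes.

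**Figure D1:**
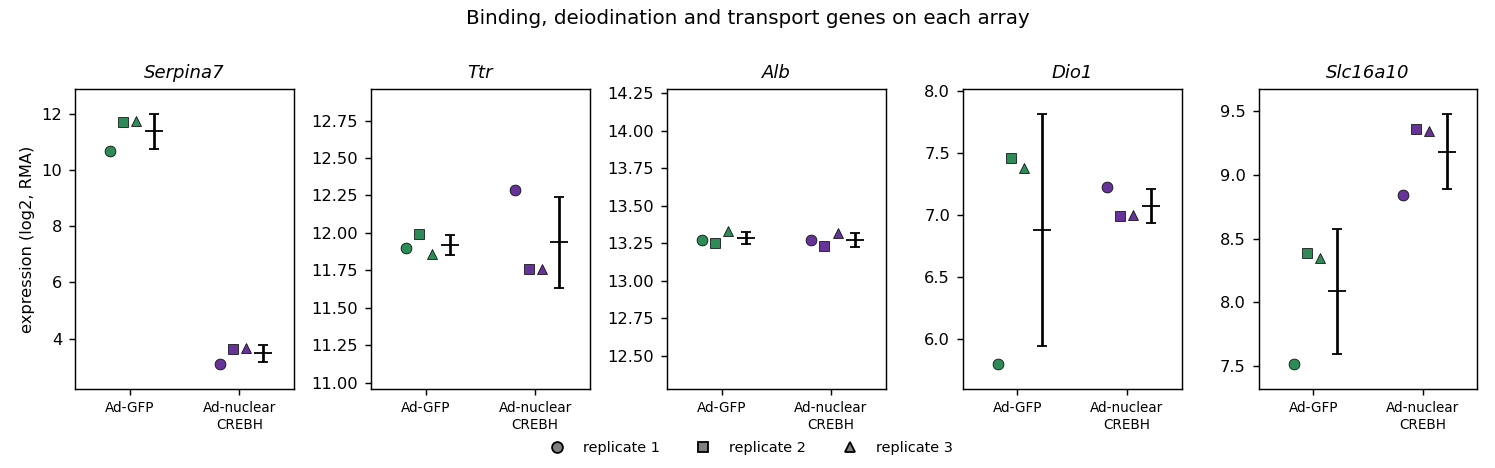
Expression (log2, RMA) of Serpina7, Ttr, Alb, Dio1 and Slc16a10 on each array of hepatocytes transduced with Ad-GFP (green) or Ad-nuclear CREBH (purple). The symbol shape gives the replicate number, and bars are the mean ± SD of 3 dishes. Each panel has its own vertical axis. Serpina7 lies at 10.66 to 11.73 against 3.11 to 3.66, Slc16a10 is higher in all 3 Ad-nuclear CREBH dishes, and for Ttr, Alb and Dio1 the groups overlap.

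The sequences around the start sites of Serpina7, Alb and Slc16a10 are shown because these genes gave a large fall, no called difference and a rise. They are RefSeq windows on GRCm38.p6, from 250 bases before the start to 50 bases after it, and 4 of the 5 genes had one, all but Ttr. Serpina7 is at chrX:139085187-139085486 on the minus strand, Alb at chr5:90460620-90460919 on the plus strand and Slc16a10 at chr10:40142205-40142504 on the minus strand. Capitals mark letters that match a motif searched on both strands.
Serpina7: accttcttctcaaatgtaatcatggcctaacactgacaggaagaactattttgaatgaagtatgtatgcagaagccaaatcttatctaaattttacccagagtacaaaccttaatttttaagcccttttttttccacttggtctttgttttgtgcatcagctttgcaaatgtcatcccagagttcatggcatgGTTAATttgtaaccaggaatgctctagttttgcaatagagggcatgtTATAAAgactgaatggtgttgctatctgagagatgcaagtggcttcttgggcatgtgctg
Alb: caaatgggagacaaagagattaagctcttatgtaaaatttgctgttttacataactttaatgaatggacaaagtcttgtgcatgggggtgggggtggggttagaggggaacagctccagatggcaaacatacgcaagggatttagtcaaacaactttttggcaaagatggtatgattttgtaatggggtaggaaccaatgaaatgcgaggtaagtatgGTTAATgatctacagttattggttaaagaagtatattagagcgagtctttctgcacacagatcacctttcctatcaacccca
Slc16a10: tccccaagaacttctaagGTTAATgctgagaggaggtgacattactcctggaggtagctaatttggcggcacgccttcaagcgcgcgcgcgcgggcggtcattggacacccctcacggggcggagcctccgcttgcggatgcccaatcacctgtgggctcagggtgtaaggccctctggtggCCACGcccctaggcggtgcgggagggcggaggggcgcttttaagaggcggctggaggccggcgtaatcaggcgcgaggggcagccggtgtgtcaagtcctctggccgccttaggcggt
The cyclic AMP response element TGACGTCA, which 1.79% of 32851 such windows hold, and its core TGACG, in 20.8%, were not found in the windows of Serpina7, Alb, Slc16a10 or Dio1. The hormone receptor core AGGTCA, in 16.3% of windows, was not found in these 4 either. GTTAAT, letters of the site bound by the hepatocyte factor HNF1, is in 7.1% of windows. It starts at position -57 in Serpina7, -32 in Alb and -232 in Slc16a10, counted from the start site. RefSeq lists 2 start sites of Serpina7, and the other lies 17 bases downstream of the one shown. The Serpina7 window also holds TATAAA at position -10, a match found in 13.6% of windows, and the Slc16a10 window holds CCACG, a part of the endoplasmic reticulum stress element, at position -68, found in 32.8%. These are matches of letters in a short window, and binding was not measured.

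Among the deiodinases, Dio1 gave no called difference and Dio3 fell. Dio1 was at 5.80, 7.46 and 7.38 in the Ad-GFP dishes and at 7.23, 6.99 and 7.00 in the Ad-nuclear CREBH dishes. The groups overlapped through replicate 1 of Ad-GFP, which was the lowest of the 6 arrays. The log2 difference was 0.19 (95% interval -0.75 to 1.13, adjusted p = 0.763). Without that array the difference was -0.35 (adjusted p = 0.0692), and without both arrays numbered 1 it was -0.43 (adjusted p = 0.00341), so that the direction of Dio1 rests on replicate 1. Dio3, which inactivates thyroid hormone, was at 7.24, 8.18 and 7.91 in the Ad-GFP dishes and at 4.57, 4.81 and 4.38 in the Ad-nuclear CREBH dishes. All Ad-nuclear CREBH dishes were lower, and the fall was 9.15-fold, with a log2 difference of -3.19 (SE 0.25, adjusted p = 4.87e-05). Dio3 was below the median gene in the Ad-nuclear CREBH dishes, so that the size of its fall can be understated. Dio2 was dim in both groups, at 3.55 and 3.26 (adjusted p = 0.41).

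Slc16a10 rose. It was at 7.52, 8.39 and 8.35 in the Ad-GFP dishes and at 8.84, 9.36 and 9.34 in the Ad-nuclear CREBH dishes. All 3 Ad-nuclear CREBH dishes were higher, and replicate 1 was the lowest of each group. The rise was 2.14-fold, with a log2 difference of 1.10 (SE 0.26, adjusted p = 0.0103). It was past the threshold with any 1 array left out, at 0.82 to 1.27, and was 0.98 without both arrays numbered 1. It did not meet the criteria of the study's methods, which ask for an unadjusted p below 0.001, against its 0.00268, and none of the 4 genes tested met them, against 8.01% of all genes. By the adjusted p, 37.4% of all genes passed in either direction, 19.2% rising and 18.2% falling, and of the 4 genes that were tested only Slc16a10 did.

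Transporters that can carry thyroid hormone went both ways. Of 12 measured, 4 rose and 4 fell, 66.7% against 37.4% of all genes. Their median log2 difference was 0.23 against 0.039 for all genes. Without both arrays numbered 1 the counts were 5 and 4. Slc10a1, the sodium-dependent bile acid transporter NTCP, was at 7.03, 6.40 and 7.19 in the Ad-GFP dishes and at 10.18, 10.36 and 10.40 in the Ad-nuclear CREBH dishes. It was higher in every Ad-nuclear CREBH dish, a 10.8-fold rise with a log2 difference of 3.44 (SE 0.21, adjusted p = 2.20e-05). The organic anion transporters Slco4a1 and Slco2b1 rose by 1.97 and 1.04 from dim levels of 3.77 and 3.78. Slc17a4 fell from 5.89 to a dim 3.72, a log2 difference of -2.17 (SE 0.38, adjusted p = 0.00243). Slc7a5 and Slc3a2 encode the light and heavy chains of the amino acid exchanger LAT1, which also takes up thyroid hormone. They fell together, with log2 differences of -0.72 (adjusted p = 0.00263) and -0.61 (adjusted p = 4.41e-04), and for each the groups did not overlap. Slco1b2, a liver organic anion transporter, was at -0.81 (adjusted p = 0.0483), and its adjusted p was 0.141 without Ad-GFP replicate 2, 0.107 without Ad-GFP replicate 3, and 0.161 and 0.117 without Ad-nuclear CREBH replicates 2 and 3. Slco1b2 also did not pass without the intensity trend (adjusted p = 0.0521) or under the 3 other normalizations (0.0543 to 0.0684). Without both arrays numbered 1 its difference was -1.23 (adjusted p = 8.77e-04). Slco1a1 was at 5.22 and 5.66 (adjusted p = 0.0931), and passed under the 3 other normalizations, with adjusted p of 0.0247 to 0.0308. Slc7a8 was at 3.91 and 4.37 (adjusted p = 0.18), and passed with array weights (adjusted p = 0.00483), without Ad-nuclear CREBH replicate 1 (0.70, adjusted p = 0.0337) and without both arrays numbered 1 (0.85, adjusted p = 0.00227).

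**Figure D2:**
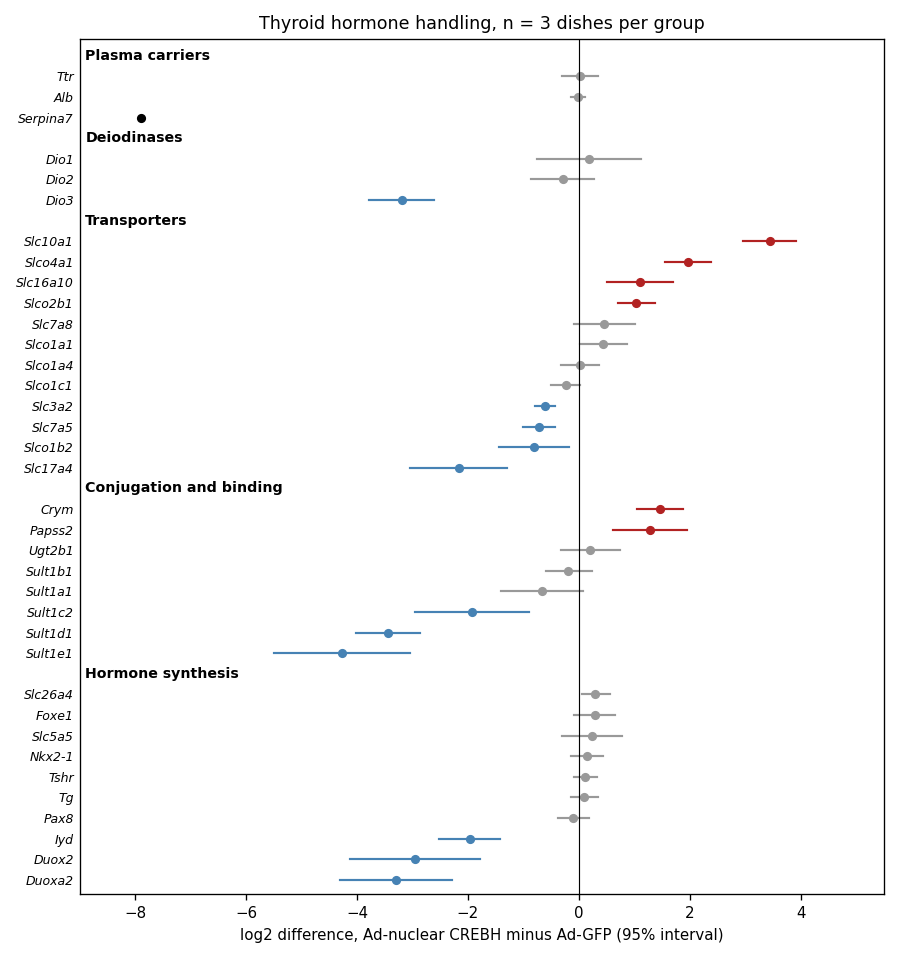
Log2 difference (Ad-nuclear CREBH minus Ad-GFP, n = 3 dishes per group) of genes of thyroid hormone carriage, deiodination, transport, conjugation and synthesis, with the 95% interval from limma as a line. Red genes rose and blue genes fell at an adjusted p under 0.05, and grey genes did not pass. Serpina7 (black, no interval and no test) is at -7.90, Dio3 at -3.19, Slc16a10 at 1.10 and Slc10a1 at 3.44.

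Inside the cell, sulfotransferases prepare thyroid hormone and other small molecules for clearance. Of 8 measured genes of conjugation and intracellular binding among 11 listed, 2 rose and 3 fell, 62.5% against 37.4% of all genes. The 3 that fell were all sulfotransferases. Sult1b1, of the same family, was dim in both groups, at 3.93 and 3.74, and did not pass (adjusted p = 0.473). Sult1e1, the estrogen sulfotransferase, was at 8.38, 6.32 and 6.10 in the Ad-GFP dishes and at 2.57, 2.66 and 2.77 in the Ad-nuclear CREBH dishes. It was lower in every Ad-nuclear CREBH dish, 19.2-fold, with a log2 difference of -4.27 (SE 0.53, adjusted p = 4.29e-04), and replicate 1 of Ad-GFP was well above the rest of its group. Without that array the difference was -3.54. Sult1d1 was at 8.10, 8.06 and 7.71 against 5.03, 4.09 and 4.44, a log2 difference of -3.44 (SE 0.25, adjusted p = 3.74e-05). Sult1c2 fell by 1.92 on the log2 scale (adjusted p = 0.0104) and was at -2.53 without Ad-GFP replicate 1. All 3 were below the median gene in the Ad-nuclear CREBH dishes, so that the size of their falls can be understated. Sult1a1 was at 5.35 and 4.69, a log2 difference of -0.66 (adjusted p = 0.15). It passed without Ad-nuclear CREBH replicate 1 (-1.05, adjusted p = 0.00514), without both arrays numbered 1 (-1.06, adjusted p = 0.00126) and with array weights (adjusted p = 0.00754). The glucuronosyltransferase gene Ugt2b1 was at 7.68 and 7.89 (adjusted p = 0.541). Those that rose were Crym, which encodes a cytosolic triiodothyronine-binding protein, by 1.47 (SE 0.18, adjusted p = 3.93e-04), and Papss2, which makes the sulfate donor, by 1.28 (SE 0.29, adjusted p = 0.00848). The probes of family members as similar as the sulfotransferases may bind each other's transcripts.

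Genes that serve hormone synthesis in the thyroid were looked at as well, although most have no known part in hepatocytes. Of 10 measured, 3 fell and none rose, 30% against 37.4% of all genes. The remaining 7 did not pass. Their group means were 2.69 to 4.24, dim signals where a fall could hardly be read. Iyd, which recovers iodide from iodinated tyrosines, was at 6.82, 7.62 and 7.56 in the Ad-GFP dishes and at 5.27, 5.23 and 5.60 in those with Ad-nuclear CREBH, a log2 difference of -1.97 (SE 0.24, adjusted p = 3.79e-04). Duox2, an oxidase that makes hydrogen peroxide, was at 5.41, 7.53 and 7.35 against 4.12, 3.73 and 3.59, a log2 difference of -2.95 (SE 0.51, adjusted p = 0.00233). Duoxa2, the factor that brings this oxidase to the cell surface, was at 6.50, 8.28 and 8.06 against 4.68, 4.13 and 4.13, a log2 difference of -3.30 (SE 0.44, adjusted p = 5.90e-04). For all 3 the groups did not overlap, as for 49.4% of all genes, and in the Ad-GFP group replicate 1 was the lowest. Without that array Duox2 was at -3.63, and without both arrays numbered 1 Duoxa2 was at -4.04. Both genes were dim in the Ad-nuclear CREBH dishes.

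**Figure D3:**
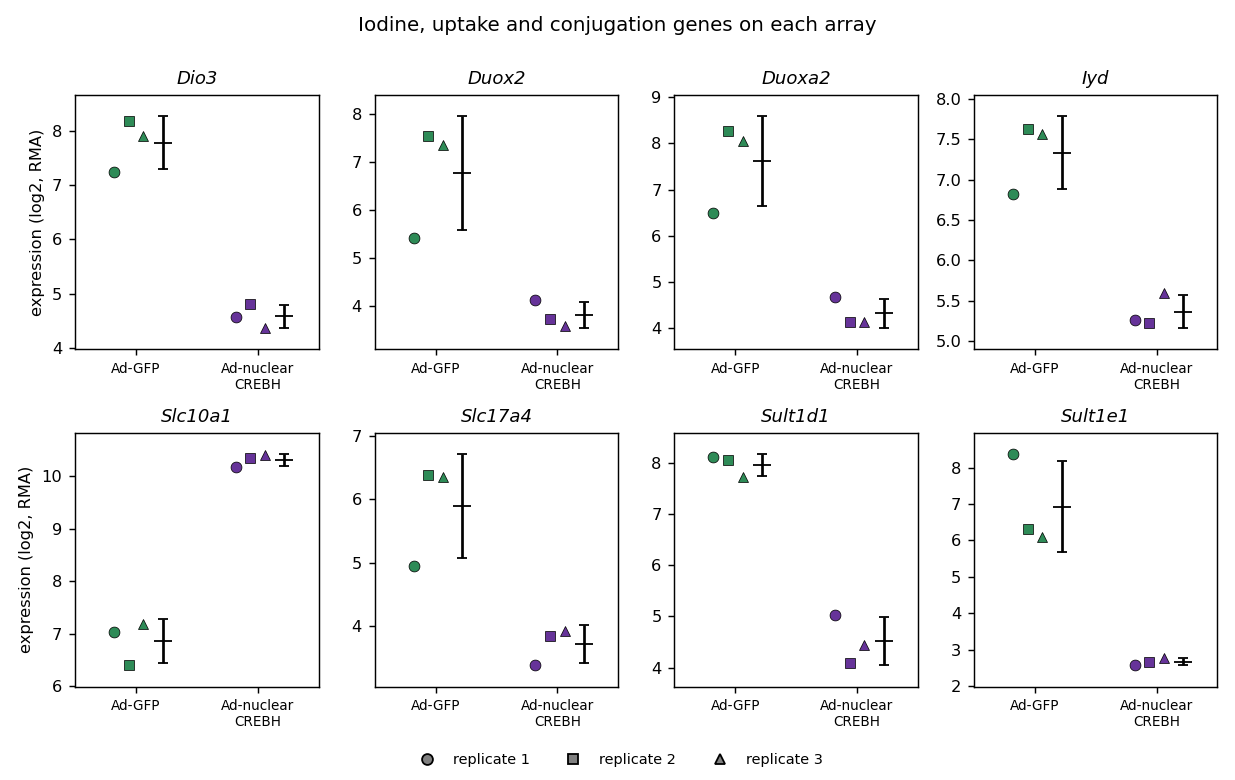
Expression (log2, RMA) of Dio3, Duox2, Duoxa2, Iyd, Slc10a1, Slc17a4, Sult1d1 and Sult1e1 on each array of hepatocytes transduced with Ad-GFP (green) or Ad-nuclear CREBH (purple), each panel with its own vertical axis. Bars are the mean ± SD of 3 dishes and the symbol shape gives the replicate number. In every panel the groups are apart, with Slc10a1 higher and the other genes lower in Ad-nuclear CREBH dishes, and replicate 1 of Ad-GFP stands off for Duox2, Duoxa2, Slc17a4 and Sult1e1.

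Thrb, the thyroid hormone receptor beta gene, was at 7.39, 7.22 and 7.40 in the Ad-GFP dishes and at 7.61, 7.46 and 7.61 in the Ad-nuclear CREBH dishes. It was higher in every Ad-nuclear CREBH dish, but the log2 difference of 0.22 (95% interval -0.08 to 0.53, adjusted p = 0.237) did not pass. It was named after its values were seen. Thra was not analysed here. Of 12 measured receptors and coregulators among 15 listed, 3 rose and 3 fell, 50% against 37.4% of all genes. The counts were the same without both arrays numbered 1. All 12 were above the median level, where a larger share of all genes passed, 2895 rising and 2967 falling of 9410. The partner receptors Rxra and Rxrg rose, by 0.89 (SE 0.16, adjusted p = 0.00274) and 1.57 (SE 0.18, adjusted p = 2.78e-04). Rxrg rose from 4.70, below the median gene. The remaining partner receptor, Rxrb, was lower in every Ad-nuclear CREBH dish but did not pass (-0.36, adjusted p = 0.129). The coactivator gene Ncoa3 rose by 0.59 (adjusted p = 0.00833). The fallen genes belong to the corepressor complex that silences receptor targets without hormone. Hdac3, its histone deacetylase, had a log2 difference of -0.97 (SE 0.13, adjusted p = 6.67e-04) and Tbl1x of -1.11 (SE 0.18, adjusted p = 0.00157). Gps2 was at -0.60 (adjusted p = 0.0465), which did not hold with any 1 of 5 arrays left out, where its adjusted p was between 0.0592 and 0.148, and held without Ad-GFP replicate 3. Under the 3 other normalizations its adjusted p was 0.0777 to 0.137. The coactivator genes Med1 and Ncoa2 were at 8.88 and 8.70 (adjusted p = 0.293) and at 8.43 and 8.41 (adjusted p = 0.925).

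Genes that triiodothyronine is known to regulate in liver moved in both directions. Of 19 measured among 21 listed, 8 rose and 4 fell, 63.2% against 37.4% of all genes, with a median log2 difference of 0.16. Without both arrays numbered 1 the counts were 8 and 7. Thrsp, the lipogenic Spot 14 gene, was at 8.69, 8.66 and 8.82 in the Ad-GFP dishes and at 9.93, 9.79 and 9.60 in those with Ad-nuclear CREBH, a log2 difference of 1.05 (SE 0.12, adjusted p = 3.01e-04). Klf9, a transcription factor gene with a well-known receptor site, was at 8.85, 8.15 and 8.05 against 9.56, 9.83 and 9.68, a log2 difference of 1.34 (SE 0.21, adjusted p = 0.00147). Gpd2, the mitochondrial glycerol 3-phosphate dehydrogenase gene, rose by 1.21 (SE 0.13, adjusted p = 1.64e-04) and Tbc1d8 by 2.02 (SE 0.21, adjusted p = 1.81e-04). Fgf21, which the study follows as a CREBH target, rose by 3.28 (SE 0.16, adjusted p = 1.76e-05). In the other direction, the malic enzyme gene Me1 was at 10.86, 11.37 and 11.29 in the Ad-GFP dishes and at 10.18, 10.49 and 10.47 in those with Ad-nuclear CREBH, a log2 difference of -0.79 (SE 0.15, adjusted p = 0.00412). Igf1, the insulin-like growth factor 1 gene, fell by 1.37 on the log2 scale (adjusted p = 0.00337), Spc24 by 0.96 (adjusted p = 0.0109) and the pyruvate dehydrogenase kinase gene Pdk4 by 1.97 (adjusted p = 0.0138, and 0.0532 without Ad-nuclear CREBH replicate 3). Pdk4 was at -1.32 with Ad-GFP replicate 1 left out. Bcl3 was at 9.37 and 8.22 (adjusted p = 0.0927). It passed with array weights (adjusted p = 0.0053) and without Ad-GFP replicate 1 (-1.58, adjusted p = 0.0178), and without both arrays numbered 1 it was lower by 1.11 with an adjusted p of 1.29e-06. Idh3a was at 8.97 and 8.95 (adjusted p = 0.879). Most of these genes answer to other signals too, so that their list is no measure of hormone action.

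Dio1 is a selenoprotein, an enzyme with selenocysteine in its active site, and its synthesis needs selenium and a dedicated insertion machinery. Of 17 measured genes of selenoproteins and this machinery, 3 rose and 6 fell, 52.9% against 37.4% of all genes. Their median log2 difference was -0.15, and without both arrays numbered 1 the counts were 4 and 8. Of the 14 above the median level 3 rose and 5 fell, against 2895 rises and 2967 falls of 9410 genes. Selenop, the plasma protein that carries selenium from liver to other tissues, was at 11.91, 12.20 and 12.12 in the Ad-GFP dishes and at 10.88, 10.86 and 10.78 in the Ad-nuclear CREBH dishes. It was lower in every Ad-nuclear CREBH dish, with a log2 difference of -1.24 (SE 0.093, adjusted p = 4.08e-05). Gpx1, a glutathione peroxidase gene, was at 11.73, 12.25 and 12.29 against 10.88, 10.79 and 10.68, a log2 difference of -1.30 (SE 0.15, adjusted p = 2.90e-04), whereas Gpx4 was at 10.44 and 10.48 (adjusted p = 0.74). Txnrd1, a thioredoxin reductase gene, fell by 1.16 on the log2 scale (adjusted p = 2.62e-04). Pstk, the kinase that prepares the selenocysteine tRNA, fell by 1.66 on the log2 scale (adjusted p = 4.82e-04) and Trnau1ap, which binds that tRNA, by 0.88 (adjusted p = 0.00221). Lrp8, a receptor that takes up Selenop, was at 8.21, 7.88 and 7.93 against 9.40, 9.98 and 9.81, a log2 difference of 1.72 (SE 0.17, adjusted p = 1.52e-04). Selenos and Scly were at 0.70 (adjusted p = 0.0133) and 0.60 (adjusted p = 0.0462). With 1 array left out the adjusted p of Selenos reached 0.06, without Ad-nuclear CREBH replicate 3, and was above the threshold without replicates 2 and 3 of either group, and that of Scly reached 0.142 without Ad-nuclear CREBH replicate 2 or 3. Scly was also at an adjusted p of 0.0593 without the intensity trend, 0.107 after quantile normalization and 0.077 after cyclic loess. Selenof was at 10.45 and 10.74 (adjusted p = 0.088), and passed with array weights (adjusted p = 0.0183), with each array centred (0.43, adjusted p = 0.00848) and without both arrays numbered 1 (adjusted p = 0.00344).

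**Figure D4:**
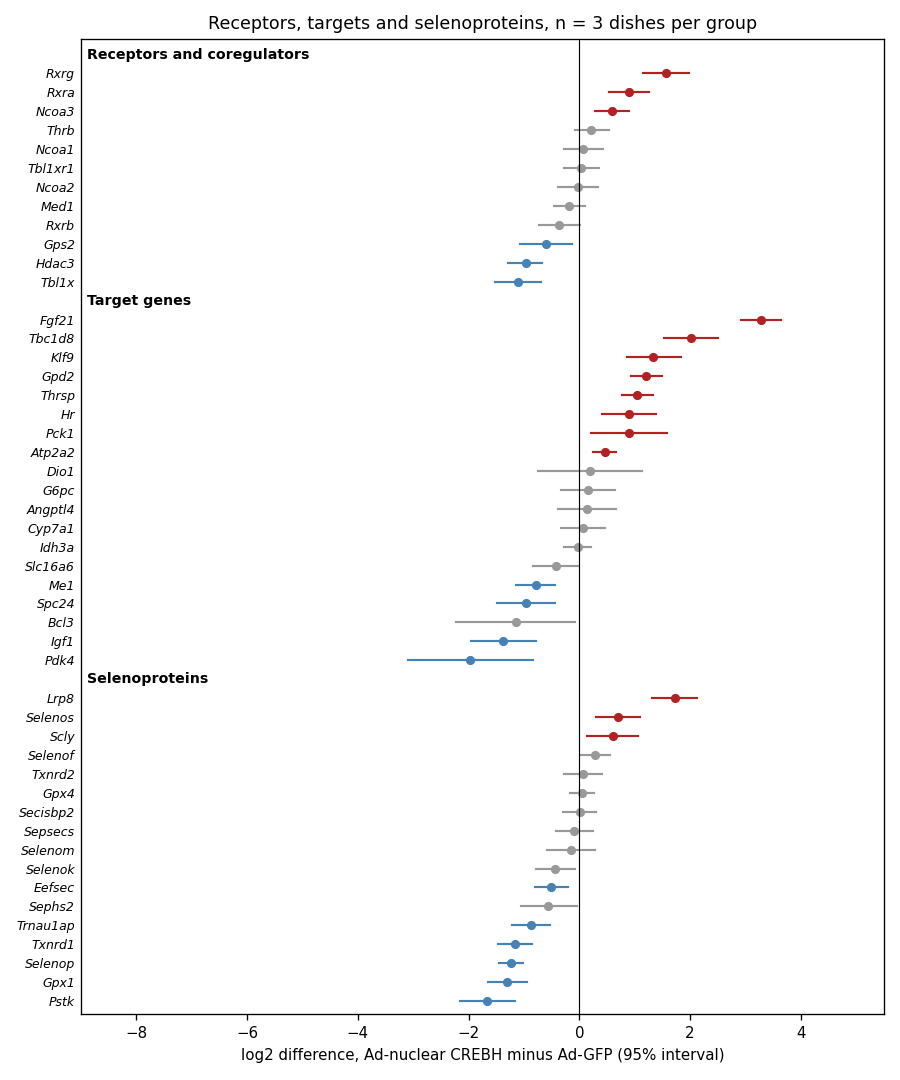
Log2 difference (Ad-nuclear CREBH minus Ad-GFP, n = 3 dishes per group) of thyroid hormone receptors and coregulators, hormone target genes of liver, and selenoproteins with their synthesis machinery, with the 95% interval from limma as a line. Red genes rose and blue genes fell at an adjusted p under 0.05, and grey genes did not pass. Thrb and Dio1 are grey, Rxrg at 1.57 and Tbc1d8 at 2.02 are to the right, and Hdac3 at -0.97 and Selenop at -1.24 are to the left.

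Over all lists of thyroid hormone biology 81 genes besides the 5 were measured, of which 19 rose and 25 fell, 54.3% in all against 37.4% of all genes. The lists were chosen with earlier results of these data known, and this share is a description. Their median log2 difference was 0.01 against 0.039 for all genes. Dim genes pass less often, and 55 of the 81 were above the median level of all genes. The shares of 54.3% and 37.4% are thus not of genes at like levels. Among genes above the median level, 17 of 55 in these lists rose and 20 fell, against 2895 rises and 2967 falls of 9410 genes. The genes whose pattern over the 6 arrays was most like that of Slc16a10 were Papss2, Ptk2b and Spata13, with Pearson's r of 0.999, 0.999 and 0.998 among 9410 genes above the median level. For Serpina7 they were Psmd5, Erg28 and AW112010, each with r of 1.000 and log2 differences of -1.82, -1.91 and -5.03. For Dio1 they were Cryzl2, Supt3 and Rpl7l1 (r of 0.996, 0.993 and 0.987), for Ttr they were Rpp38, Wee1 and Pcgf1 (0.993, 0.992 and 0.974), and for Alb A530032D15Rik, Psmb1 and Top3a (0.887, 0.820 and 0.788). These r-values are a description over 6 arrays that share the group difference and the deviation of replicate 1. Of the markers of other liver cells, macrophage genes gave 1 rise and 3 falls of 8, and their summed linear level was 2644 to 3581 in Ad-GFP and 1160 to 2525 in Ad-nuclear CREBH dishes. Most of this sum was Cd68, at 11.70, 11.52 and 11.24 against 11.16, 9.99 and 9.90 (log2 difference -1.13, adjusted p = 0.0215), whereas Csf1r rose by 0.61 (adjusted p = 0.0254) and Adgre1 and Clec4f were at 0.15 and 0.26 and did not pass. None of the 8 fell without Ad-GFP replicate 1, without Ad-GFP replicate 2 or without Ad-nuclear CREBH replicate 3. None of 6 endothelial markers passed, 1 of 6 stellate markers fell, and of 4 cholangiocyte markers 1 rose and 1 fell. The part of other cells in the results above was not tested.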

How the data were processed

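Total RNA of 3 Ad-GFP and 3 Ad-nuclear CREBH dishes was hybridized to Affymetrix Mouse Gene 1.1 ST arrays. Log2 expression was deposited as processed by RMA, a method of background correction, normalization between arrays and summary of probes per transcript. The RMA version is not given in the sources read, and the log base was read from the range of the values. RMA gives no background flag, and fold changes of dim genes can be understated. Groups came from the sample labels. Of 35556 features 21218 carried 1 gene symbol in the platform annotation and were used, keeping the feature of highest mean for each gene. Each of the 5 genes had 1 feature.

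Linear models were fitted over all 18820 genes in R 4.3.3 with limma 3.58.1 (eBayes with an intensity trend), with Benjamini-Hochberg adjustment, and were tested on simulated data. The number of arrays limits the precision. The criteria of the methods were an unadjusted p under 0.001, a fold above 2 or below 0.5, and expression above 300. The last was read here as a linear group mean above 300 in either group, and the p was that of limma. Alternatives covered the variance prior, the moderated statistic, array weights, the replicate block, 3 normalizations, the features per gene, a filter on low values and arrays left out. Members and lists were chosen with earlier results of these data known. Genes named are the 5, Creb3l3, the up to 5 largest rises and falls per thyroid hormone list, and the 3 most correlated per member. Up to 2 of the brightest per list that did not pass were named too, where the rule allowed 4. Thrb was added, as were Rxrb and Sult1b1 beside the named members of their families. Figures were drawn with matplotlib 3.10.9.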

Additional observations from a re-analysis of the deposited data

How the results depend on the processing

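Under every alternative run, Serpina7 was between -8.25 and -7.71 on the log2 scale, and Slc16a10 was between 0.82 and 1.27 and past the threshold. Ttr was at -0.11 with array weights, 0.16 with each array centred, -0.04 after quantile normalization and -0.21 after cyclic loess, and between -0.17 and 0.11 with arrays left out. Alb was at 0.13 with each array centred, 0.03 after quantile normalization and -0.31 after cyclic loess, and between -0.04 and 0.01 with arrays left out. Dio1 was at -0.29 with array weights, and between -0.43 and 0.48 with arrays left out. Serpina7 was chosen for its fall in this comparison, so that the criteria of the methods are no test of it. Of the 5 genes 0 met these criteria when both group means had to exceed the expression minimum. The lists of thyroid hormone biology without the 5 genes gave 19 rises and 25 falls, and 16 to 22 rises and 20 to 30 falls under the alternatives. Centring moved the median of all genes from 0.039 to 0.18. Same-numbered arrays deviated together with r of 0.178, 0.0729 and 0.139, so that the numbers were not taken as pairs. With the replicate number as a block Slc16a10 was at 1.10 (adjusted p = 9.54e-04), Serpina7 at -7.90, Ttr at 0.02, Alb at -0.01 and Dio1 at 0.19, Slco1b2 did not pass (adjusted p = 0.0931), Selenof and Bcl3 passed (0.0204 and 4.35e-04), the lists without the 5 genes gave 19 rises and 25 falls, and 3715 genes rose and 3705 fell over all. For Creb3l3, Thrb and the genes that the naming rule took from the lists, 56 in all besides the 5, 826 of 883 values under alternatives kept direction and call. The 13 that changed direction were of genes that did not pass. With arrays left out these reached -0.50 to 0.02 for Dio2, -0.01 to 0.09 for Gpx4, -0.09 to 0.01 for Idh3a, -0.14 to 0.07 for Ncoa2 and -0.13 to 0.38 for Ugt2b1. Gpx4 was also at -0.14 after quantile normalization and -0.10 after cyclic loess, Idh3a and Ncoa2 at 0.12 each with centred arrays, and Ugt2b1 at -0.05 with array weights. The causes were not tested.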
